A study of Mus musculus with 8 samples.

Results

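stress_Myeloid is one of 21 clusters that the authors' annotation defines among tissue-resident leukocytes of the mouse brain and its membranes. Its members were the cells carrying that name in the annotation, matched by barcode to the library each came from. They were 176 of 32457 annotated cells, with 36854 barcodes in the deposited matrices. The label carries one marker, Hspa1a, an inducible heat shock protein of the HSP70 family.

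The series measured single-cell RNA (droplet sequencing with unique molecular identifiers, UMIs) in 8 libraries of CD45+ cells that an intravenous CD45 antibody had not reached (CD45iv-). The mice were C57BL/J in the sample titles, C57BL/6 in the strain label, and male C57BL/6 of 10 to 16 weeks in the study's methods. They underwent transient occlusion of the middle cerebral artery (MCAO), a stroke model, or served as controls, which the study's texts call both naive and sham-operated. Brain parenchyma was sampled in controls (1 library), at 24 h (2 libraries) and at 72 h (1 library), while pia and dura had 1 control and 1 24 h library each. The control pia library was grouped by its source and tissue labels, since its title names brain parenchyma instead. How many mice stand behind each library is not given in the labels, and replicate experiments were described as pooled. Nothing says that the libraries of one condition came from separate animals, so p-values measure the spread between these libraries. Brain tissue was digested with collagenase D for 20 min at 37 °C and passed over a density gradient, whereas pia and dura were digested for 45 min at 37 °C, so tissue and dissociation cannot be told apart in any comparison of brain with border tissue.

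Heat shock proteins are chaperones. HSP70 proteins bind unfolded stretches of other proteins, HSP40 proteins (the Dnaj genes) hand them clients and start their ATP cycle, HSP90 proteins finish the folding of signalling proteins, and HSP110 proteins such as Hsph1 exchange the nucleotide on HSP70. When proteins unfold, the heat shock factor Hsf1 is released, forms trimers and binds heat shock elements, inverted repeats of the bases GAA and TTC, in the promoters of these genes. Immediate early genes such as Fos and Jun are a separate class, transcribed within minutes of many kinds of stimulus without new protein synthesis. Microglia, the macrophages of the brain parenchyma, and the macrophages of the pia and dura can switch on both programmes, and enzymatic dissociation of tissue is a known trigger.

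The promoters of Hspa1a and Hspa1b are shown first because these were the genes in which stress_Myeloid stood farthest above the macrophage clusters, and because the near-identity of the copies bears on how their counts can be read. Hspa1a (ENSMUSG00000091971) lies at chr17:34969190-34972156 and Hspa1b (ENSMUSG00000090877) at chr17:34956436-34959238, both on the minus strand of GRCm38. The 250 bases before each start are printed from RefSeq (GRCm38.p6), 5′ to 3′ on the gene's strand, at chr17:34972157-34972406 for Hspa1a and chr17:34959239-34959488 for Hspa1b. Capitals mark a match to the core of a heat shock element.
Hspa1a: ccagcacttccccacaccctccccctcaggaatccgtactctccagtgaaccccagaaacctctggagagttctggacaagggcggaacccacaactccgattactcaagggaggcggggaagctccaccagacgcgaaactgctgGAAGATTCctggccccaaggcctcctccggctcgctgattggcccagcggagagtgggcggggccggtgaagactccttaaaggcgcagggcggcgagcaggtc
Hspa1b: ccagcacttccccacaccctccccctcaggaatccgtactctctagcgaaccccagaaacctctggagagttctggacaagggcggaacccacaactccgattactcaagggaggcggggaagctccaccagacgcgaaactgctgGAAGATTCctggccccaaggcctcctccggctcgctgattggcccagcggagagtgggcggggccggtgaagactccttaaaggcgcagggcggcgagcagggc

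These windows were identical at 247 of 250 bases (98.8%), and differed by C44T, T47C and T249G (Hspa1a base first, counted from 1 at the 5′ end of the window). The transcribed parts of the copies are near-identical too, and reads from shared sequence cannot be assigned to one copy, so the split between Hspa1a and Hspa1b is uncertain. The motif searched was GAANNTTC or TTCNNGAA. Each spelling reads the same on both strands, and the pair can overlap within a longer repeat. The match in both copies lies from base -104 to base -97 before the start. Hsph1 (chr5:149614287-149636376, minus strand) has 2 RefSeq windows with the same match, from -33 to -26 of one start and from -54 to -47 of the other. It lies inside the GENCODE gene, downstream of the GENCODE start, and is shown here in 30 bases at chr5:149636351-149636380.
Hsph1: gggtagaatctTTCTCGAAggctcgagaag

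Jun also holds a match, from -128 to -121, while both Dnajb1 windows (chr8:83608193-83612653 is the gene, plus strand) hold none. The second Dnajb1 window, at chr8:83608298-83608547, lies inside the GENCODE gene, downstream of its start. Of the 15 genes that were higher in stress_Myeloid than in macrophages of every library compared (below), 11 had an entry in the promoter table and 4 of those (36.4%) held the motif. The 4 include Hspa1a and Hspa1b, whose near-identical windows hold the same match and are not separate cases. Skil, Ier2 and Hsp90aa1 had no entry. The motif occurred in 4218 of all 32851 promoter windows (12.8%) and in 168 of the 1126 genes with an entry that passed the filter on level (14.9%). A match is a description of the letters only.

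stress_Myeloid cells were present in all 8 libraries. The brain gave 100 of the 176 (56.8%), the pia 65 (36.9%) and the dura 11 (6.25%). Per library, there were 19 in the control brain, 25 and 45 in replicates 1 and 2 of the brain at 24 h, 11 in the brain at 72 h, 30 in the control pia, 35 in the pia at 24 h, 6 in the control dura and 5 in the dura at 24 h. Control mice contributed 55 cells, so the cluster was not limited to tissue after stroke.

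As a share of annotated cells, stress_Myeloid made up 0.442% of the control brain (95% exact Clopper-Pearson interval 0.266 to 0.690). In the brain at 24 h, it made up 0.546% (0.353 to 0.804) in replicate 1 and 1.30% (0.948 to 1.73) in replicate 2. In the brain at 72 h, it made up 0.182% (0.0908 to 0.325). The replicates at 24 h thus differed from each other by more than their counting intervals, with a mean of 0.922% ± 0.532 (SD, n = 2), and replicate 1 overlapped the interval of the control. This difference was not kept among cells with at least 1000 UMIs, where the shares were 0.568% (0.364 to 0.843) in replicate 1 and 0.688% (0.367 to 1.17) in replicate 2, beside 0.470% (0.283 to 0.734) in the control and 0.101% (0.0328 to 0.235) at 72 h.

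The pia held 1.07% in the control (0.721 to 1.52) and 0.892% at 24 h (0.622 to 1.24), and these intervals overlap. The dura held 0.213% in the control (0.0784 to 0.464) and 0.111% at 24 h (0.0359 to 0.258). These intervals cover counting error only, and the shares of different conditions were not tested against each other.

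**Figure D1:**
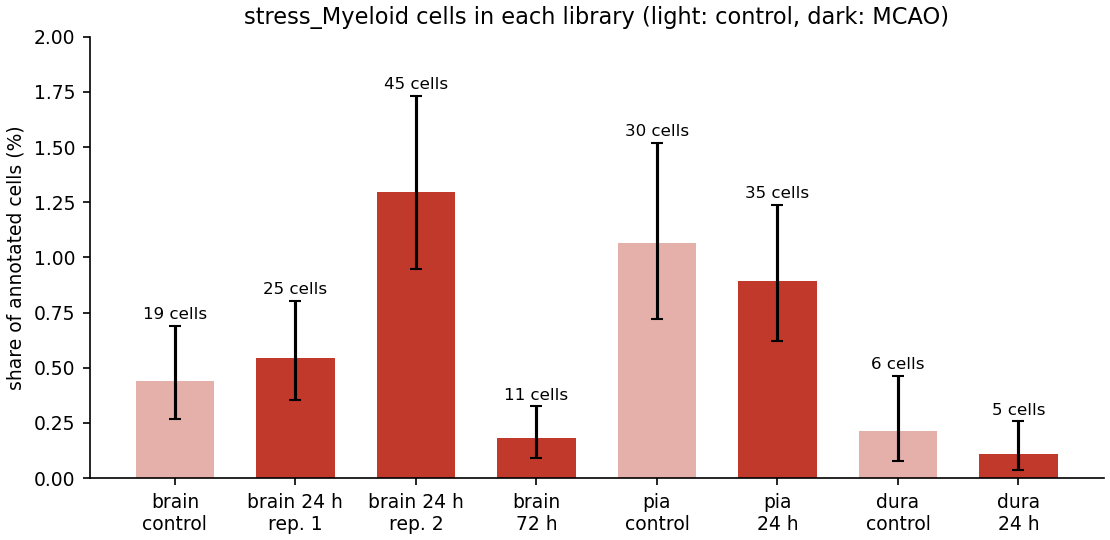
Share of annotated cells (%) that carry the stress_Myeloid name in each of the 8 libraries (bars), with exact 95% intervals for counting error and the number of cells. Replicate 2 of the brain at 24 h (1.30%) and both pia libraries (1.07% and 0.892%) sit highest, and both dura libraries are at or below 0.213%.

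A pair of libraries stood apart in ways the groups do not explain. Replicate 2 of the brain at 24 h and the brain at 72 h shared 13 cell barcodes with each other but 0 to 2 with each other library (4 in 12 pairs), while the 15 pairs among the remaining 6 libraries shared 12 to 43 (345 in all). The study's supplementary information names another kit version for the brain at 72 h and the dura at 24 h, which is not the same split as these barcodes, so which kit made each library is uncertain. Only 2 stress_Myeloid cells carried a barcode that recurred in another library. stress_Myeloid cells of these libraries were also shallower, with a median of 795 UMIs in replicate 2 at 24 h and 669 at 72 h. The medians elsewhere were 1449 in the control brain, 1866 in replicate 1 at 24 h, 1820.5 and 1529 in the pia at control and 24 h, and 1854.5 and 2216 in the dura.

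Across libraries, stress_Myeloid cells had a median of 1438 UMIs and 695.5 genes, against 2199 UMIs in 9202 cells of the 4 macrophage clusters (CAM_1, CAM_2, Macro_1 and Macro_2), 767 in 727 cells of stress_Micro, the other cluster named for stress, and 1009 in lymphoid cells. Mitochondrial genes gave a median of 1.09% of UMIs and ribosomal protein genes 4.40%. In the 2 libraries of the other barcode set the mitochondrial median was higher, at 3.33% (replicate 2 at 24 h) and 3.40% (72 h), than the 0.632% of the control brain and the 0.431% of replicate 1 at 24 h.

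Hspa1a, the marker in the label, was high in stress_Myeloid of every library. Summed over the cells of each library and scaled to CPM (UMIs per 1000000), Hspa1a stood at 4030 in the control brain, 3223 and 6206 in replicates 1 and 2 of the brain at 24 h, and 6206 in the brain at 72 h. It stood at 9128 in the control pia, 10302 in the pia at 24 h, 5831 in the control dura and 6255 in the dura at 24 h. In every library the level lay far above that of the macrophage clusters, which had 145, 127, 189 and 42.6 CPM in the same order of brain libraries, 824 and 986 in the pia and 206 and 278 in the dura. Both classes had their highest Hspa1a levels in the pia.

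**Figure D2:**
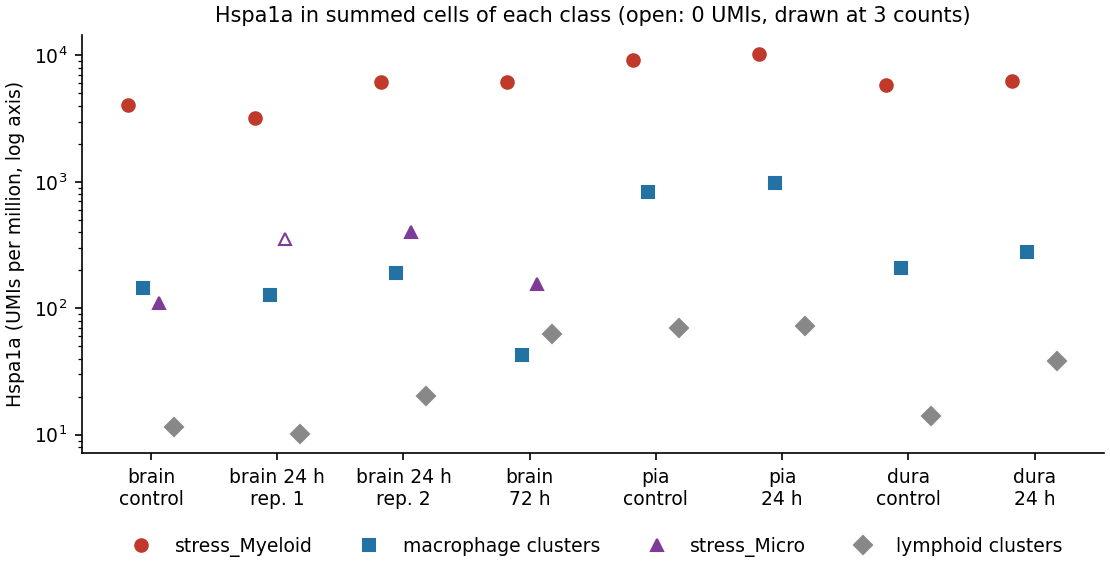
Hspa1a in CPM (log axis) for the summed cells of stress_Myeloid, the macrophage clusters, stress_Micro and lymphoid clusters in each library (comparators with at least 10 cells; open symbols mark 0 UMIs, drawn at 3 counts). stress_Myeloid lies between 3223 and 10302 in all 8 libraries and the macrophage clusters between 42.6 and 986.

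Per cell, Hspa1a ranged from 0 to 49 UMIs in stress_Myeloid with a median of 8, and 8 of the 176 cells had none. The median cell gave 0.608% of its UMIs to Hspa1a. This was the value on which clustering could draw, so it describes the cluster and is not evidence for it. After each cell was thinned to 500 UMIs, 156 of 176 stress_Myeloid cells (88.6%, interval 83.0 to 92.9) kept an Hspa1a UMI. The same share was 12.1% in macrophage clusters and 10.7% in stress_Micro (33 of its cells were too shallow). Lymphoid cells (median 1009 UMIs), taken as a measure of the background from free RNA, gave 1.62%. Without thinning the shares of cells with Hspa1a were 95.5%, 25.3%, 14.99% and 2.91%.

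High Hspa1a was not limited to cells with this name. Outside stress_Myeloid, 210 of 32281 annotated cells (0.651%) reached the median Hspa1a share of the cluster, 0.608% of UMIs. They were 13 of 18296 cells in the brain (0.0711%), 176 of 6667 in the pia (2.64%) and 21 of 7318 in the dura (0.287%). Macro_2 held 85 of them, Micro_2 42 and CAM_1 35. In the pia, cells this high in Hspa1a were thus more numerous outside the cluster than the 65 cells inside it.

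The 2 copies split differently by library. Hspa1b made up 0% of the summed Hspa1a and Hspa1b UMIs in stress_Myeloid of the control brain, 5.81% in replicate 1 at 24 h, 43.3% in replicate 2 at 24 h and 28.0% at 72 h. In the pia it made up 2.95% and 2.27%, and in the dura 5.63% and 5.71%, control first. Macrophage clusters showed the same split, with 30.6% in replicate 2 at 24 h and 24.4% at 72 h and 1.78% to 2.60% in the other libraries. The high shares of Hspa1b belonged to the 2 libraries of the other barcode set in both classes, so a difference in Hspa1b between conditions or tissues cannot be told apart from that set. Taken as a sum, Hspa1a and Hspa1b reached 4030, 3422, 10947 and 8614 CPM in the 4 brain libraries (control, 24 h replicates 1 and 2, 72 h), 9405 and 10541 in the pia and 6179 and 6634 in the dura.

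To find which genes set stress_Myeloid apart, the cells were compared with the macrophage clusters of the same library in the 4 libraries that had at least 20 cells of each (both brain replicates at 24 h, and the pia of control and 24 h). A gene was counted as higher or lower where its level differed at least 2-fold in the same direction in all 4. Of 1420 genes with a mean of at least 100 CPM, 15 were higher (1.06%) and 11 lower (0.775%). Across these 1420 genes the median log2 ratio was -0.13. With TMM factors, which moved the median of all genes to -0.58, the split was 6 higher and 41 lower. Of the 15, Hspa1b, Hsph1 and Acox3 passed the filter on level only through stress_Myeloid, and 5 of the 11 only through macrophages. Because the clusters were made from these counts, the ratios are a description and no p-value is given. Most of the genes that were higher were chaperones or immediate early genes.

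Within the HSP70 family, 3 of the 6 members that passed the filter were higher and none was lower (13 were listed), with a median log2 ratio of 2.02. Of these 3, Hspa1b and Hsph1 passed the filter only through stress_Myeloid. The median was lower with a filter at 50 CPM and with no filter, as given in the closing section. Hspa1b exceeded its level in macrophages by log2 ratios of 6.37 and 5.82 in brain replicates 1 and 2, 3.99 in the control pia and 3.61 in the pia at 24 h, where macrophages had 2.30, 83.6, 17.9 and 20.2 CPM. Hspa1a had ratios of 4.67, 5.03, 3.47 and 3.39 in the same order. For both copies the ratio was larger in the brain than in the pia. Macrophages of the pia had more Hspa1a than those of the brain, but less Hspa1b than those of replicate 2. In replicate 1 the Hspa1b ratio rested on 10 UMIs in stress_Myeloid and 5 in macrophages.

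Hsph1 stood at 99.5 and 474 CPM in stress_Myeloid of brain replicates 1 and 2, 590 in the control pia and 547 in the pia at 24 h, against 27.6, 60.2, 63.5 and 74.2 in macrophages (median log2 ratio 2.95). Hspa8, the constitutive HSP70 of the cytosol, was above macrophages in all 4 libraries, by 0.84, 0.77, 1.34 and 1.39, and did not reach 2-fold in the brain. Hspa5, the HSP70 of the endoplasmic reticulum, had a median log2 ratio of 0.65.

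Among HSP40 genes, 1 of 10 that passed was higher, Dnajb1, and the median log2 ratio of the list was 0.02. Dnajb1, the inducible HSP40 that works with HSP70, stood at 3720 and 259 CPM in brain replicates 1 and 2, 4442 in the control pia and 3178 in the pia at 24 h, against 366, 84.7, 542 and 587 in macrophages. It was low in replicate 2 in both classes. Dnaja1 missed the rule because of replicate 1 of the brain, with ratios of 0.54, 2.42, 2.11 and 2.14.

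Of the HSP90 family, 1 of 3 was higher. Hsp90aa1, the inducible cytosolic HSP90 (chr12:110690605-110702728, minus strand), stood at 975, 2500, 1215 and 1794 CPM in the 4 libraries against 417, 693, 394 and 607 in macrophages, log2 ratios of 1.24, 1.86, 1.63 and 1.57. Its constitutive partner Hsp90ab1 had a median of 1.16 without reaching 2-fold everywhere. None of 9 chaperonins (median log2 ratio 0.33), 6 co-chaperones (0.08) or 12 genes of endoplasmic reticulum stress (0.19) was higher or lower in all 4 libraries, and no small heat shock protein passed the filter. With TMM factors the medians of the HSP40, chaperonin and endoplasmic reticulum stress lists fell below 0.

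Immediate early genes formed the larger group by number. Of 28 that passed the filter, 7 were higher and none lower, and the median log2 ratio was 1.20. In every library, 21 of the 28 lay above macrophages, beside 196 of all 1420 genes that passed. Jun, a subunit of the transcription factor AP-1 (chr4:95049034-95052222, minus strand), stood at 12275 and 17411 CPM in brain replicates 1 and 2, 11626 in the control pia and 7244 in the pia at 24 h, against 4448, 3442, 1809 and 1093 in macrophages (median log2 ratio 2.51). The other 6 were Ier2 (1.77), Klf2, a zinc-finger transcription factor (1.50), Btg2, an antiproliferative gene (1.49), Ier5 (1.45), Fosb, another AP-1 subunit (1.41), and the small GTPase Rhob (1.15). Egr1 and Fos had medians of 2.21 and 1.58 but fell short of 2-fold in replicate 1 of the brain.

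Outside these lists were Acox3, a peroxisomal acyl-CoA oxidase, with a median log2 ratio of 1.86, and Skil, a repressor of TGF-beta signalling, with 1.14. Acox3 rested on few counts in the pia, with 3 UMIs in the control and 5 at 24 h. Of the 19 NF-kappaB and cytokine genes that passed, none was higher and 1, Ccl7, was lower (list median 0.23).

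**Figure D3:**
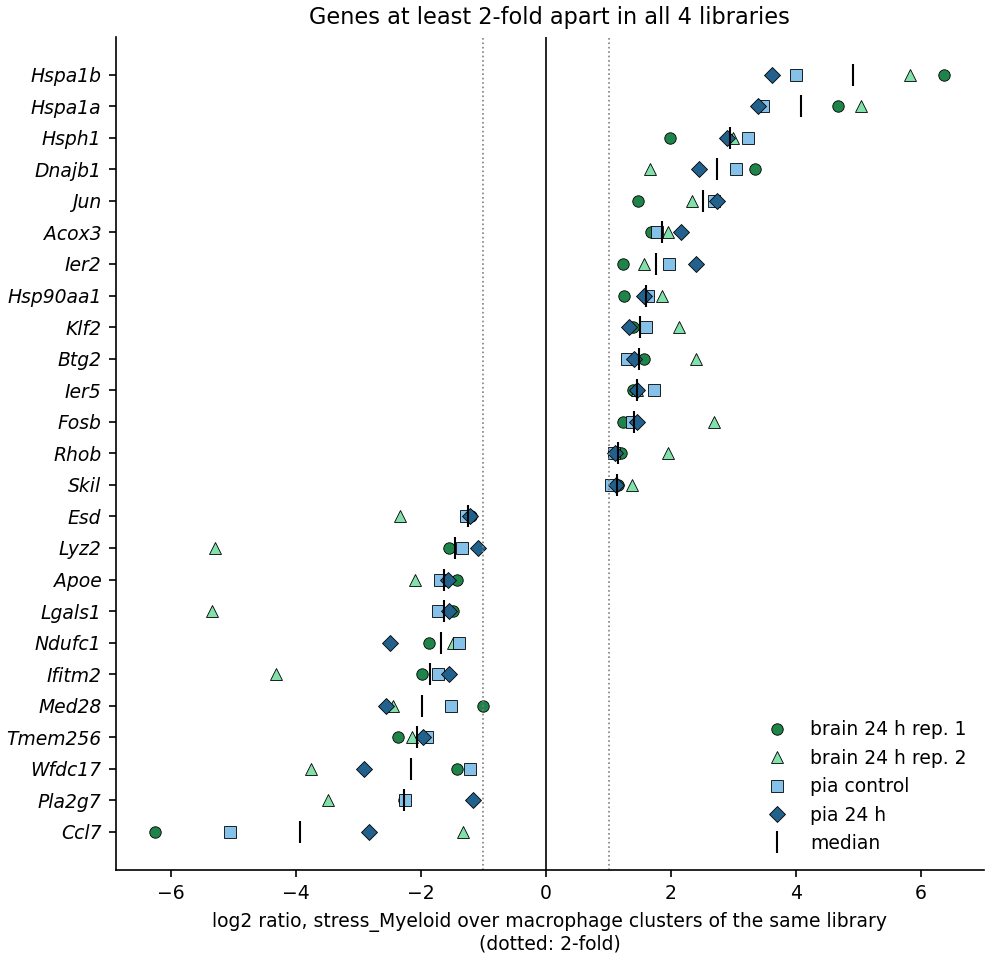
log2 ratio of stress_Myeloid over the macrophage clusters of the same library for the genes named here that were at least 2-fold higher or lower in all 4 libraries (points: libraries, bars: medians, dotted lines: 2-fold). Hspa1b and Hspa1a lie at the top, with medians of 4.91 and 4.07, and Ccl7 at the bottom, with -3.94.

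The 11 genes that were lower included abundant products of macrophages. Ccl7, a chemokine for monocytes, had the lowest median log2 ratio, -3.94, and stood at 208 CPM in the control pia and 649 in the pia at 24 h, against 7166 and 4663 in macrophages. In the brain Ccl7 was at 0 and 86.2 CPM in replicates 1 and 2, against 755 and 242. Apoe, a lipid carrier, had a median of -1.63 and Lyz2, the lysozyme of macrophages and monocytes, -1.45.

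Apoe stood at 696 and 1918 CPM in brain replicates 1 and 2, and at 14871 and 12182 in the pia. The macrophage clusters had 1885, 8250, 48014 and 36040. The remaining genes with 2-fold lower levels were Pla2g7 (-2.27), Wfdc17 (-2.16), Tmem256 (-2.06), Med28 (-1.98), Ifitm2 (-1.86), Ndufc1 (-1.68), Lgals1 (-1.63) and Esd (-1.24). Of these, Pla2g7, Tmem256, Med28, Ndufc1 and Esd passed the filter on level only through the macrophages and rested on few UMIs in stress_Myeloid, with 10, 1, 2 and 4 for Esd and 0, 0, 3 and 13 for Pla2g7 in brain replicates 1 and 2 and the pia of control and 24 h. Pla2g7 hydrolyses platelet-activating factor, Ifitm2 restricts viral entry, and Lgals1 encodes galectin-1. The direction of Pla2g7 turned against the most similar cluster of each library, the comparator described next.

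The macrophage clusters held different cell types in brain and pia, so the cluster of each library whose expression correlated best with stress_Myeloid was taken as a second comparator, chosen after seeing the data. Over genes outside the stress lists, the closest cluster was Micro_3 in replicate 1 of the brain at 24 h (r = 0.909 on log2(CPM + 100), across genes of 1 library), Micro_2 in replicate 2 (0.903) and Macro_2 in the pia of control (0.916) and 24 h (0.902). With the stress lists included, Micro_2 was also closest in replicate 1 (0.916). Apart from the stress genes, stress_Myeloid cells were thus closest to a microglia cluster in both brain libraries at 24 h and to a macrophage cluster in both pia libraries. Margins in the brain were small. Micro_2 (0.902) and CAM_1 (0.876) came next in replicate 1, where stress_Micro had too few cells (11). In replicate 2, Micro_1 (0.891) and stress_Micro (0.888) came next. The next clusters in the pia were Micro_3 in the control (0.830) and Micro_2 at 24 h (0.816).

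Against these closest clusters, 5 of 1399 genes were higher (0.357%) and 0 lower (0%), with a median log2 ratio of -0.01 over all genes. The clusters were picked for their likeness outside the stress lists in the same counts, so the small number of other differences is partly set by that choice. The 5 higher genes were Hspa1b (3.79), Hspa1a (3.36), Hsph1 (2.68), Ptger4 (1.48) and Hsp90aa1 (1.33), of which all but Ptger4 were among the 15 genes higher than macrophages. Of these, Hspa1b, Hsph1 and Ptger4 passed the filter on level only through stress_Myeloid, the class in which they were high. Hspa1b had 0 UMIs in Micro_3 of brain replicate 1, so its ratio there is set by the counts added. Ptger4, a prostaglandin E2 receptor, was named after its values were seen and rested on 2 UMIs in each brain library. The median of the immediate early genes was 0.92 in this comparison, with none reaching 2-fold in all 4 libraries, and neither Ccl7 nor Apoe was 2-fold lower in all of them.

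Lineage markers differed by tissue within stress_Myeloid. Microglia markers (10 genes, among them Tmem119 and P2ry12) summed to 27937 CPM in the control brain, 14662 and 10473 in replicates 1 and 2 at 24 h and 10467 at 72 h. In the pia they summed to 1874 in the control and 974 at 24 h, and in the dura to 1741 and 3412. All 100 brain cells, 51 of 65 pia cells and all 11 dura cells had a UMI of at least 1 microglia marker. Thinned to 500 UMIs, the shares were 100% in the brain and 46.2% in the pia (median depths 1174 and 1736 UMIs), against 35.3% and 6.82% of lymphoid cells (1375 and 1108), a measure of the background.

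MHC class II genes, which present antigen to CD4 T cells, ran the other way. Their sum was 3759 CPM in the control brain, 1134 and 1487 in replicates 1 and 2 at 24 h and 2871 at 72 h, but 128896 and 90602 in the pia and 139339 and 84731 in the dura, control first. All 65 pia and all 11 dura cells had a class II UMI, against 56 of 100 brain cells. Thinned to 500 UMIs, the share in the brain was 34.0% (24.8 to 44.2). Lymphoid cells include B cells, which have class II genes of their own, so the background was taken from T, NK, gdT and ILC2 cells, with 10.6% in the brain (8.72 to 12.8, median depth 1428 UMIs). In the pia the share was 100% in stress_Myeloid and 58.8% in these lymphoid cells (median depth 1127 UMIs). Without thinning, 87.4% of these lymphoid cells in the dura had a class II UMI (median depth 950 UMIs), beside all 11 stress_Myeloid cells. The class II sums of macrophage clusters in the same libraries were 14161, 6413, 20096 and 19827 CPM in the brain and 89991 and 51915 in the pia.

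Border macrophage markers were lower in stress_Myeloid than in the macrophage clusters of the pia, with 1111 and 1128 CPM against 5393 and 5145. The defining markers Pf4 and Mrc1 stood at 156 and 139 CPM in the control pia, against 1739 and 534 in macrophages. General macrophage markers, led by C1qb in the control brain and by Apoe in the pia, summed to between 21462 and 53265 CPM in every library. T and NK cell markers were at 0 in 4 of the 8 libraries and at no more than 94.8 CPM elsewhere, and B cell markers reached 609 CPM in the control dura, which had 6 cells. The label Myeloid therefore fitted the markers.

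**Figure D4:**
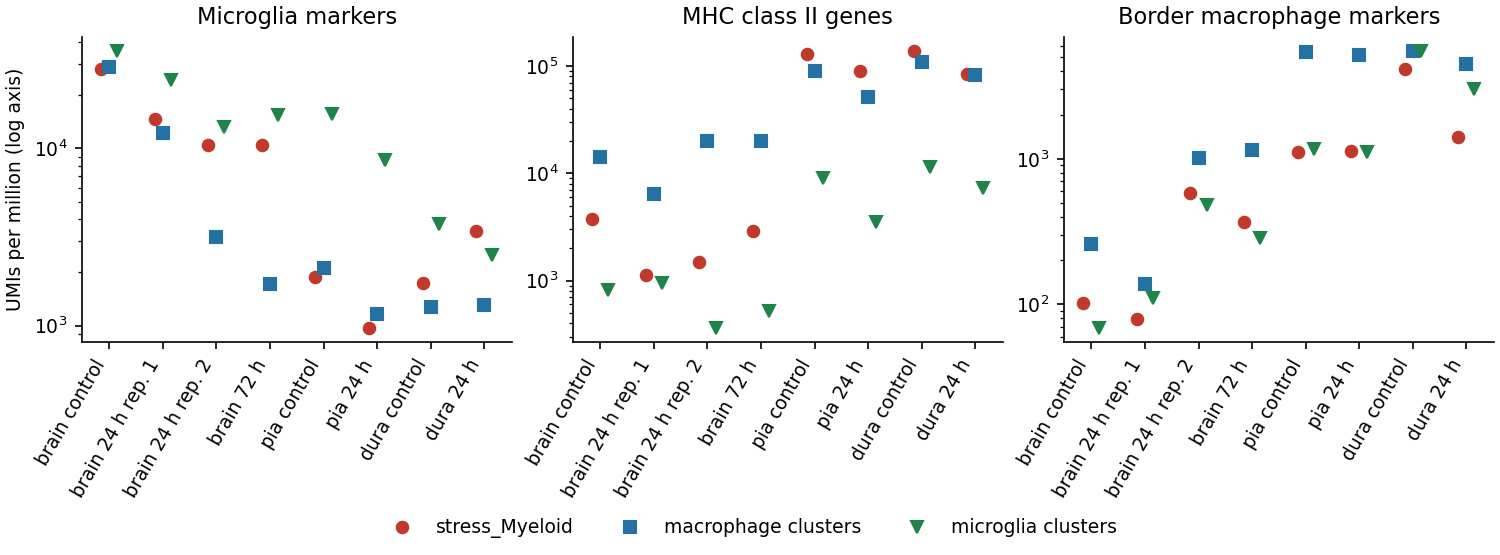
Microglia markers, MHC class II genes and border macrophage markers, each summed (CPM, log axis) in stress_Myeloid, macrophage clusters and microglia clusters of each library. In stress_Myeloid the microglia sum falls from 10467 or more in the brain to 3412 or less in pia and dura, while the class II sum rises from 3759 or less to 84731 or more.

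Erythroid markers moved with the library set. Erythroid and platelet markers in stress_Myeloid were at 776 CPM in replicate 2 at 24 h and 1852 at 72 h, led by Hbb-bs, and at 0 in the other 6 libraries. Malat1, a nuclear RNA that led the list of RNA quality genes in all 8 libraries, stood at 76733, 64836, 80096 and 65395 CPM in the 4 brain libraries and at 34723 and 31898 in the pia, and the levels of brain and pia did not overlap (log2 difference -1.08, adjusted p = 0.260, not called by edgeR's quasi-likelihood test). Their part in the results was not tested.

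The study has a second cluster named for stress, stress_Micro, and the question here was where the 2 differ. Only replicate 2 of the brain at 24 h held at least 20 cells of each (45 and 479), so the values describe 1 library. Of 1652 genes, 124 were higher in stress_Myeloid (7.51%) and 65 lower (3.93%), and the median log2 ratio was 0.15. With TMM factors (median of all genes -0.11) the split was 65 higher and 128 lower. Of the 124, 82 passed the filter on level only through stress_Myeloid, and of the 65 lower, 50 only through stress_Micro, so these counts are partly set by the filter. Hspa1b and Hspa1a led, with log2 ratios of 4.21 and 3.96. Hspa1a stood at 6206 CPM in stress_Myeloid (exact Poisson interval 5510 to 6966) and 399 in stress_Micro (342 to 464). Hspa1b stood at 4741 (4135 to 5410) and 256 (210 to 309). The clustering drew on these genes, and Hspa1a is the label's marker, so the values describe the cluster. Of the HSP70 family 4 of 7 were higher (median 1.37), adding Hspa8 and Hsph1, as were 2 of 3 HSP90 genes (1.36) and 4 of 7 chaperonins (1.04). Among these, Hsph1 and the chaperonins Hspe1, Cct3 and Cct7 passed the filter only through stress_Myeloid, the class in which they were high. Of 8 HSP40 genes 1 was higher, Dnaja1, and 1 lower, Dnajc1 (median 0.84), while 1 of 3 co-chaperones (0.25) and 2 of 12 genes of endoplasmic reticulum stress (0.49) were higher. The higher members of these last lists, St13, Sdf2l1 and Pdia4, passed the filter only through stress_Myeloid, and Dnajc1 only through stress_Micro.

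Of 23 immediate early genes, none was 2-fold higher or lower than in stress_Micro, and the median log2 ratio was 0.27. Jun stood at 17411 CPM in stress_Myeloid and 13260 in stress_Micro. The median depths were 795 and 819 UMIs per cell.

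H2-Aa and H2-Eb1, genes of class II chains, were next, at 259 CPM (134 to 452) and 215 (103 to 396) against 16.4 (6.61 to 33.9) and 14.1 (5.17 to 30.7), and rested on 12 and 10 UMIs. Both passed the filter on level through stress_Myeloid, the class in which they were high. Cd74 and H2-DMa had log2 ratios of 1.84 and 1.02. In this library, thinned to 500 UMIs, 22.2% of stress_Myeloid cells had a UMI of the MHC class II genes (11.2 to 37.1), against 15.6% of stress_Micro (12.4 to 19.2) and 3.99% of T, NK, gdT and ILC2 cells (2.01 to 7.02), so the first pair of intervals overlapped. Ccnd2, cyclin D2, completed the 5 highest at 2.64. It rested on 10 UMIs, passed the filter only through stress_Myeloid, and turned to lower with libraries of at least 10 cells. None of 10 microglia markers was higher or lower (median -0.12). The 5 lowest were Enpp2 (-4.77), Ttr (-3.47), Ptgds (-3.35), Fam133b (-2.62) and Meg3 (-2.31), of which Enpp2, Ttr and Ptgds are products of choroid plexus or meninges and Meg3 of neurons. Ttr, a thyroid hormone carrier, had 431 CPM in stress_Myeloid (263 to 666) and 4879 in stress_Micro (4671 to 5093). Enpp2 had no UMI in stress_Myeloid and 294 CPM in stress_Micro. Its ratio is therefore set by the counts added, and its rank below Ttr is not fixed.

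A pair of comparisons between libraries, within stress_Myeloid, were tested with edgeR on UMIs summed per library, over the 6 libraries with at least 10 cells (4 brain, 2 pia). Each was adjusted for the other, 3 residual degrees of freedom remained, and calls needed an adjusted p under 0.05 with a change of at least 2-fold. Cells entered the cluster in part for their Hspa1a and other stress genes. A comparison of those genes between libraries therefore runs over cells already selected on them. For Hspa1a, Hspa1b and Hsph1 the values are given as a description, with no p, and calls of other stress genes carry the same limit.

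The first asked whether stroke changed these cells (4 MCAO against 2 control libraries). No gene of 907 was called (0%) by edgeR's quasi-likelihood test, with 28 at an unadjusted p under 0.05, and none was called by DESeq2, with 16. Both libraries of the other barcode set were MCAO. In alternatives added after seeing the data, edgeR called 5 genes with the set as a covariate (2 higher, 3 lower, with 2 residual degrees of freedom) and 12 without its libraries (5 higher, 7 lower, with 1 residual degree of freedom). Hspa1a ranged from 3223 to 10302 CPM after MCAO and stood at 4030 and 9128 in the controls. The groups overlapped, with a log2 difference of 0.20 ± 0.66 (SE). Over the 5 HSP70 genes tested the median log2 difference was 0.20, over 26 immediate early genes 0.11 and over all genes 0.08. With 6 libraries, changes of the size of this error were not detectable. The only 72 h library was also MCAO.

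The second asked how stress_Myeloid cells of the border differed from those of the brain. The dura was left out for lack of cells, so border here means 2 pia libraries. edgeR called 47 of 907 genes higher in the pia (5.18%) and 38 lower (4.19%), and 192 had an unadjusted p under 0.05. Scaled by library size alone, the split was 36 higher and 45 lower. With the kit version named by the study as a covariate it was 63 and 43, of 1429 genes tested rather than 907.

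Of the MHC class II genes, 5 of 6 tested were higher in the pia. Cd74, the invariant chain that guides class II molecules, stood at 92073 and 69638 CPM in the pia of control and 24 h and between 378 and 2269 in the 4 brain libraries. The groups did not overlap, and the log2 difference was 6.38 ± 0.62 (SE; adjusted p = 1.57e-07, edgeR's quasi-likelihood test). Without the 2 libraries of the other barcode set, which leaves 1 residual degree of freedom, it was not called (6.26, adjusted p = 0.236, edgeR's quasi-likelihood test). H2-Ab1, H2-Aa, H2-Eb1 and H2-DMb1 followed, with log2 differences of 5.34, 5.05, 4.67 and 2.56.

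Of 18 NF-kappaB and cytokine genes tested, 6 were higher in the pia and none was lower. Among those that did not pass were Tnf (adjusted p = 0.481) and Ccl3 (adjusted p = 0.855, both edgeR's quasi-likelihood test). Cxcl2, a chemokine for neutrophils, stood at 4633 to 5997 CPM in the pia and 33.9 to 463 in the brain (log2 difference 6.02 ± 0.86, SE, adjusted p = 0.000126, edgeR's quasi-likelihood test). Il1b, the cytokine interleukin-1 beta, stood at 1492 to 1726 against 0 to 79.6 CPM. The other 4 were the surface protein Cd83, the receptor Tlr2, Ccl7 and the inflammasome sensor Nlrp3, with log2 differences of 4.58, 3.25, 4.25 and 2.16. Ccl7 was thus higher in stress_Myeloid of the pia than of the brain while lying below the macrophages of its own library in both.

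Among the 5 genes with the largest positive fold changes, 3 had no UMI in any brain library, so that their folds are lower bounds against a floor of 3 counts over the group. Id3, an inhibitor of helix-loop-helix transcription factors, was at least 25.2-fold higher in the pia, the co-stimulatory ligand Tnfsf9 at least 24.0-fold and the inhibitory lectin receptor Clec12a at least 12.6-fold. Their adjusted p-values were 0.000484, 0.000633 and 0.0390 (edgeR's quasi-likelihood test). These 3 genes passed the filter on low counts only through the pia libraries, the group in which they were high, so their calls are partly set by the filter. Id3 was not called by DESeq2 (adjusted p = 0.453). Clec12a was not called by edgeR with library size alone (adjusted p = 0.0734) or with at least 20 cells (adjusted p = 0.204), and DESeq2 gave it no adjusted p. Lyz2 was also higher in the pia, at 6230 and 7808 CPM against 108 to 556 in the brain.

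All 9 microglia markers tested were lower in the pia. Sparc, a matricellular protein that microglia secrete, stood at 676 to 2032 CPM in the brain and at 0 to 17.4 in the pia, where 1 UMI was found (log2 difference -6.92 ± 1.11, SE, adjusted p = 0.000188, edgeR's quasi-likelihood test). Siglech, a sialic acid-binding receptor, was at least 14.7-fold lower and Adamts1, a metalloprotease, at least 30.5-fold lower, both with no UMI in the pia. Both passed the filter on low counts only through the brain libraries, in which they were high. Tmem119, P2ry12 and Cx3cr1 had log2 differences of -5.18, -5.82 and -3.59. In the libraries with at least 20 cells, which leave 2 for the brain, Adamts1 was the only gene called lower, and Sparc (adjusted p = 0.0923) and Siglech (adjusted p = 0.328, both edgeR's quasi-likelihood test) were not. Siglech was also not called by edgeR without the control brain (adjusted p = 0.131) or without the control pia (adjusted p = 0.0823).

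Ttr, a marker of choroid plexus, was also lower in the pia, with 0 UMIs against 37 in the 4 brain libraries (at least 10.5-fold lower, adjusted p = 0.0121, edgeR's quasi-likelihood test). Ttr passed the filter on low counts only through the brain libraries, in which it was high. It stood at 59.7 to 648 CPM in the brain, and its part in the results was not tested.

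The last of the 5 lowest were Fscn1 and Gm42418. Fscn1, an actin-bundling protein, had no UMI in the pia and 0 to 711 CPM in the brain (at least 10.2-fold lower), so the groups overlapped. Fscn1 passed the filter on low counts only through brain libraries. It was not called by edgeR with at least 20 cells, without a filter on low counts, or without the control brain or the control pia (adjusted p = 0.0755 to 0.979). Gm42418, a transcript that overlaps ribosomal RNA, stood at 4762 and 6854 CPM in the 2 libraries of the other barcode set and at 33.9 and 119 in the other brain libraries. Its log2 difference of -7.21 (adjusted p = 0.0122, edgeR's quasi-likelihood test) was no longer called when the set entered as a covariate (-2.73, adjusted p = 0.0814), by DESeq2 (adjusted p = 0.0738) or with at least 20 cells (adjusted p = 0.146).

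Chaperones differed by tissue for few members with all 6 libraries in the fit. Of 5 HSP70 genes tested 1 was higher in the pia, and of 4 HSP40 genes 1. Hspa8 stood at 13292 and 16692 CPM in the pia and 2866 to 6685 in the brain (log2 difference 1.96 ± 0.62, SE, adjusted p = 0.0461, edgeR's quasi-likelihood test), and Dnaja1 at 5258 and 6629 against 517 to 1465 (2.75 ± 0.67, adjusted p = 0.0101). Hspb1, a small heat shock protein, ran the other way, with no UMI in the pia and 102 to 1019 CPM in the brain (at least 11.0-fold lower, adjusted p = 0.0122, edgeR's quasi-likelihood test). Hspb1 passed the filter on low counts only through the brain libraries, in which it was high.

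Hspa1a itself was at 9128 and 10302 CPM in the pia and 3223 to 6206 in the brain. The libraries did not overlap, with a log2 difference of 1.13 ± 0.64 (SE). In alternatives added after seeing the data, the difference was 1.49 with the barcode set as a covariate and 1.40 without the set's 2 libraries. For Hsph1 it was 2.12 with all libraries, 3.27 with the covariate and 3.17 without those libraries. Of 26 immediate early genes tested, Nr4a1 and Csrnp1 were higher in the pia and none was lower (list median -0.26, all genes -0.07). Nr4a1, an orphan nuclear receptor, stood at 991 and 1232 CPM against 21.5 to 102 in the brain. Of 3 p53 and apoptosis genes tested, Cdkn1a, an inhibitor of cyclin-dependent kinases, and Pmaip1, a BH3-only protein, were higher, with log2 differences of 2.98 and 4.25.

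**Figure D5:**
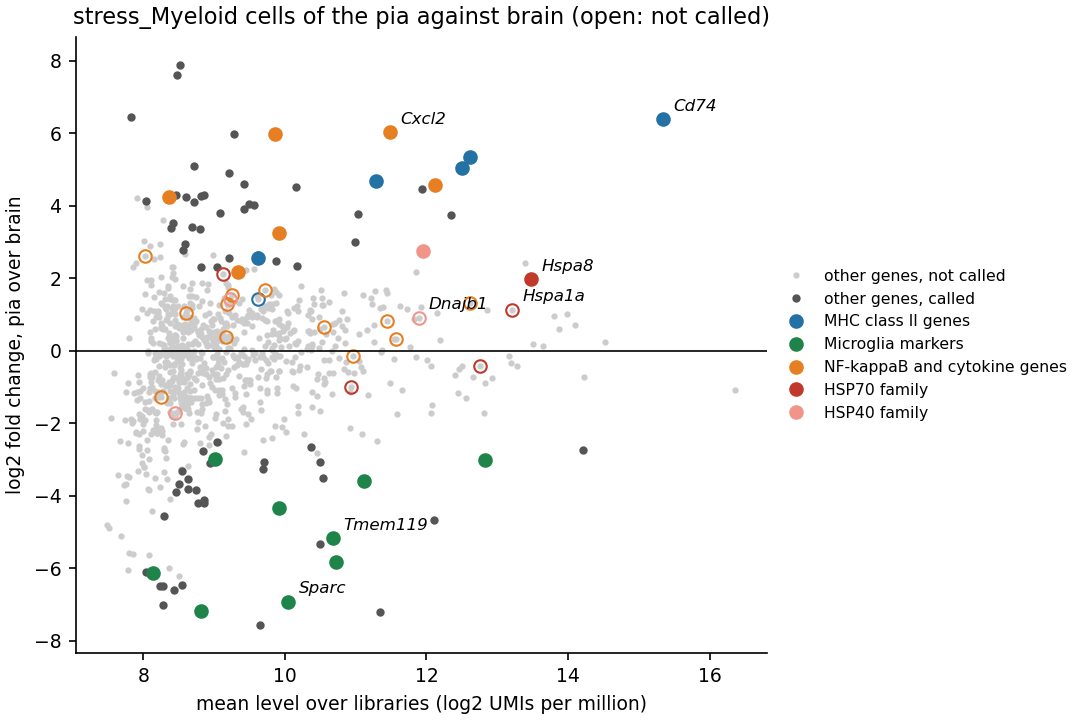
log2 fold change of pia over brain within stress_Myeloid against the mean level (log2 CPM) for the 907 genes tested by edgeR, with gene lists in colour and open symbols for genes not called. MHC class II genes lie above 0 and all 9 microglia markers below, while Hspa1a, a gene on which the cells were selected, lies at 1.13.

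Without the pia library at 24 h no gene was called between pia and brain (78 at an unadjusted p under 0.05), and the control pia alone then stood for the border. Of the 85 genes called with all libraries, 84 had the same direction there. The pia and brain cells were closest to different clusters of their own libraries, as described above, so these differences set cells of unlike closest clusters beside each other under one cluster name.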

How the data were processed

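Single-cell RNA was measured by the authors in 8 libraries, aligned to mm10 with Cell Ranger 6.0 per the submitters' processing notes. The deposited matrices hold raw UMI counts per gene and barcode. The deposited annotation gives each kept cell a cluster, made by the authors in Seurat after filtering cells on genes and mitochondrial reads, removing doublets and normalising with SCTransform. The deposited UMAP coordinates of each cell, a score that the authors computed from the normalised data, were not used. No cell was filtered further. Library totals were 6591898 to 20754181 UMIs. Over the 30406 genes shared by all libraries, counts were summed per library and cluster and scaled to CPM (per 1000000), with 0.5 counts added to each sum in ratios, which were taken in libraries with at least 20 cells of both classes over genes with a mean of at least 100 CPM. For these ratios stress_Myeloid was compared with other clusters only within a library, and 2-fold in every library was the rule for higher or lower. Cct6a and Gm26870, listed genes, were outside the shared genes.

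Sums of libraries with at least 10 stress_Myeloid cells were tested in R 4.3.3 with edgeR 4.0.16 (filterByExpr, TMM, robust glmQLFit and glmQLFTest, Benjamini-Hochberg adjustment over all genes tested, called at an adjusted p under 0.05 and at least 2-fold, terms for condition and tissue), with DESeq2 1.42.0 as an alternative. Both scripts were tested on simulated counts. Thinning to 500 UMIs per cell used seed 20220217, and lymphoid cells without B cells were taken as the class II background after seeing the data. All else was computed in Python 3.11.15 (pandas 2.3.3, scipy 1.17.1, numpy 2.4.6), and figures were drawn with matplotlib 3.10.9. Gene positions are from GENCODE annotation of GRCm38, promoters from RefSeq.

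Genes named are the label's marker, members of 31 lists of stress pathways and cell type markers, the 10 highest and 10 lowest by median ratio against macrophages, 5 and 5 against stress_Micro, and 5 and 5 by fold change for each edgeR comparison. Skil, Rhob, Ier5, Fosb, Btg2 and Esd complete the set that met the 2-fold rule. Some genes that met these rules are not reported here. The members and lists were chosen with earlier results of these data known. Counting intervals are 95%, and a count of 0 allows up to 3 counts. The closing section gives the effect of other normalisations, filters, comparators and left-out libraries.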

Additional observations from a re-analysis of the deposited data

Results flagged for a closer look

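The change in the share of stress_Myeloid from control to 24 h after MCAO went in opposite directions in brain and border tissue. It was 0.103 percentage points in replicate 1 of the brain and 0.855 in replicate 2, against -0.175 in the pia and -0.103 in the dura. Each tissue had 1 control library and pia and dura had 1 library at 24 h. The difference between tissues was not tested. The change in replicate 1 of the brain and those in pia and dura lie within overlapping counting intervals of their controls. Replicate 2 is one of the libraries of the other barcode set, and among cells of at least 1000 UMIs the shares were 0.688% there, 0.568% in replicate 1 and 0.470% in the control.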

How the results depend on the processing

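Counts of genes followed the comparator, the filter and the libraries. Direction was followed for the 10 highest and 10 lowest genes against macrophages and the 5 and 5 against stress_Micro. It held except in 2 cases, Pla2g7 (0.10 against the most similar cluster) and Ccnd2 (-0.96 with libraries of at least 10 cells). Other genes named for their ratios were not followed in this way. With the genes followed in the edgeR comparisons included, 85 results kept their direction but lost their call, 6 gained a call and 588 had an unchanged call. The causes were not tested. Against macrophages, genes higher and lower were 4 and 5 with at least 10 cells (6 libraries), 27 and 38 with at least 30 (3 libraries), 25 higher at 50 CPM, 6377 and 23 with no filter, 28 and 4 with 2 counts added, 6 and 41 with TMM factors (median of all genes -0.58), 23 higher after thinning to 500 UMIs, 24 and 19 with clusters weighted equally, and 5 and 0 against the most similar cluster, a choice made after seeing the data. Leaving out 1 library gave 20 to 28 higher and 13 to 38 lower, with 27 and 38 without replicate 1 of the brain at 24 h, 17 lower without replicate 2, 28 higher without the control pia and 23 higher without the pia at 24 h. The immediate early median was 1.03 to 1.17 on leaving out 1 library and 0.92 against the most similar cluster. The HSP70 median was 1.09 at 50 CPM, 1.24 unfiltered and 1.57 with TMM. The HSP40 median was 0.34 unfiltered, 0.35 with 2 counts added, 0.54 thinned and -0.45 with TMM, which also gave -0.21 for chaperonins, -0.23 for endoplasmic reticulum stress and 0.77 for immediate early genes.

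Against stress_Micro, genes higher and lower were 3 and 3 with at least 10 cells (4 libraries), 439 and 197 at 50 CPM, 5220 and 1443 unfiltered, 202 and 18 with 2 counts added, 65 and 128 with TMM, 206 higher with totals that left out stress and mitochondrial genes and 301 higher after thinning. List medians became 0.43 (immediate early) and 1.90 (MHC class II) with at least 10 cells, 1.06 and 0.75 (HSP70) at 50 CPM and unfiltered, 1.12 (HSP70 and HSP90) and 0.030 (immediate early) with TMM, and 0.40 (immediate early) after thinning. Shares of cells with Hspa1a at 1000 UMIs, with 500 UMIs as the main depth, were 93.9% in stress_Myeloid, 19.1% in macrophages, 13.3% in stress_Micro and 2.75% in lymphoid cells, and 95.5%, 25.3%, 14.99% and 2.91% unthinned. The share of the cluster in replicate 2 of the brain at 24 h was 0.688% among deeper cells. With a pseudocount of 10 CPM the highest correlations were 0.862, 0.854, 0.877 and 0.860 (brain replicates 1 and 2, pia control and 24 h), with the same cluster closest in each.

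For MCAO, edgeR called 2 higher and 3 lower with the barcode set as covariate and 5 and 7 without its 2 libraries, both added after seeing the data. On leaving out 1 library it called 0 to 1 higher and 0 to 1 lower, the calls coming without replicate 1 of the brain at 24 h. Differences that edgeR did not call changed sign. For MCAO, Hspa1a went from 0.20 to -0.14 with the set as covariate or without its libraries and to -0.12 without the term for tissue, and Hspa1b from 2.75 to -0.34 with at least 20 cells (-0.33 without the control brain), where Hsph1 also went from 1.20 to -0.23. Jun went from -0.27 to 0.035 on leaving out one or the other pia library. For pia against brain, Hspa1b went from -0.99 to 1.34 with the set as covariate, 1.15 without its libraries, 0.74 with DESeq2 and 6.66 without the pia at 24 h, and Fos from -0.41 to 0.18 unfiltered and 0.038 without the pia at 24 h. The 5 highest and 5 lowest genes called between pia and brain kept their sign in every alternative that tested them. For pia against brain, genes higher and lower were 99 and 98 with the set as covariate, 116 and 120 without its libraries (1 residual degree of freedom), 9 and 1 with at least 20 cells, 23 lower with DESeq2 and 8 lower unfiltered. Leaving out 1 library gave 0 to 89 higher and 0 to 91 lower, with 26 and 5 without the control brain, 89 and 91 without replicate 1 at 24 h, 21 and 3 without the control pia, and 0 and 0 without the pia at 24 h. No paired analysis was possible because only the brain libraries at 24 h carry replicate numbers. The limits are the few cells (5 to 45 a library), 1 library for most conditions, shallow cells in replicate 2 and the 72 h library, and digestion that differed between tissues.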

Other observations

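Among 4397 barcodes without a cluster in the annotation, 14 (0.318%) gave at least the stress_Myeloid median of 0.608% of their UMIs to Hspa1a. They were 4 of 854 (0.468%) in control libraries and 10 of 3543 (0.282%) in MCAO libraries, and 11 of the 14 were in the pia (4 of 266 in the control and 7 of 400 at 24 h). The other 3 were 1 of 880 in replicate 2 of the brain at 24 h and 2 of 538 in the dura at 24 h. Oxidant and metal defence genes, not described above, had a median log2 ratio of -1.06 against macrophages over the 7 that passed the filter, with none 2-fold lower in all 4 libraries, beside -0.13 over all genes.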
